A study of Mus musculus with 15 samples.

Results

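Mouse memory B cells are divided into subsets by a small set of surface molecules and transcription factors, and 9 genes of that kind were followed here in germinal centre B cells. The genes were Nt5e, Cd80, Pdcd1lg2, Cmah, Pecam1, Klf2, Klf3, Foxp1 and Arhgef3, chosen by symbol out of 19938 genes measured on the arrays. Each gene was read from the probe set with a single symbol and the highest mean, and all 9 were found. No filter on low values was applied, so all 9 entered every comparison. The set was proposed with results of these 15 arrays in view, so the values below describe the genes, and no count of passing members is offered as support for a pattern.

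CD73, encoded by Nt5e, together with CD80 and PD-L2, encoded by Pdcd1lg2, marks memory B cells that differ in how readily they become plasma cells or return to a germinal centre. CD73 is an ectoenzyme that makes adenosine from AMP outside the cell, while CD80 and PD-L2 are B7 family ligands for receptors on T cells. CMAH, the hydroxylase that converts one sialic acid into another, is repressed in germinal centre B cells, which exposes the GL7 epitope. PECAM1, also called CD31, is an adhesion molecule with inhibitory motifs in its tail. KLF2 and KLF3 are zinc finger factors of quiescent, recirculating lymphocytes, FOXP1 is a forkhead repressor that is high in resting B cells, and ARHGEF3 is a guanine nucleotide exchange factor.

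The cells were SwHEL B cells with the CD45.1 marker, carrying a knocked-in receptor for hen egg lysozyme. They were transferred into C57BL/6J mice and recovered from the spleen 10 days after immunization with sheep red blood cells coupled to the lysozyme mutant HEL3x. All groups were sorted as donor-derived, IgG1+ and CD38 low, a gate that keeps germinal centre cells and leaves out CD38-high cells such as most mouse memory B cells. Thus the markers were read in cells gated as germinal centre cells and not in sorted memory cells. Cd38 had no value among the genes used, so the gate could not be checked by it. Within that gate, dark zone cells had high CXCR4 and low CD86 and light zone cells the opposite, and each zone was sorted by affinity. The groups were Dzhi and Dzlo, dark zone cells of high and of low affinity with 4 arrays each, Lzhi, light zone cells of high affinity with 3 arrays, and Lzlo, light zone cells of low affinity with 4 arrays. The labels give the cells as female, and they do not say whether arrays came from separate or pooled mice, so the p-values rest on the scatter among these arrays, which may be technical.

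Values are RMA values on the log2 scale, where a difference of 1 is a doubling. Array medians lay between 5.57 and 5.74. The descriptions carry an experiment code, written here as experiments A to D, with the forms of code B for the dark and the light zone merged. Experiment D has no Lzhi array. Of 12 germinal centre B cell markers 10 were measured, and their mean log2 level lay between 10.10 and 10.55 on all arrays, with Bcl6 between 9.38 and 10.54. The arrays Lzlo replicate 3 and Dzlo replicate 3, both of experiment D, stood apart in the mean of 13 neutrophil markers, at 9.03 and 7.68, against 4.94 to 6.55 on the other 13 arrays. T cell markers were also highest on Lzlo replicate 3, at 6.90, followed by 5.92 on Lzlo replicate 4. NK cell markers and macrophage and monocyte markers were highest there too, at 6.36 and 6.22, followed by Dzlo replicate 3 at 5.57 and 5.68. Where leaving out either array, or both, turned the direction of a member's printed difference or moved it by over 1.5 times, that value follows the result.

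The promoters of 4 members are shown because 2 of the members encode KLF factors and these windows carry the CACCC box, the core letters that such factors bind. The lines give the 120 bases just before the RefSeq start (GRCm38.p6, plus strand, 5′ to 3′), with CACCC and its reverse GGGTG in capitals.
Klf2, chr8:72318942-72319061: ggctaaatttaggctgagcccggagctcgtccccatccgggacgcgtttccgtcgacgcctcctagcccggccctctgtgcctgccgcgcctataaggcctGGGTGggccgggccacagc
Klf3, chr5:64803401-64803520: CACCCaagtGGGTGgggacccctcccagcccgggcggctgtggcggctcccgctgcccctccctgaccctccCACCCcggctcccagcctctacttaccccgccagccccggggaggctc
Nt5e, chr9:88327489-88327608: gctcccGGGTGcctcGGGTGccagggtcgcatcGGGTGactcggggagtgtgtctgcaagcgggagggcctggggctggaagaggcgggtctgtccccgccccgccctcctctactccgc
Pdcd1lg2, chr19:29410799-29410918: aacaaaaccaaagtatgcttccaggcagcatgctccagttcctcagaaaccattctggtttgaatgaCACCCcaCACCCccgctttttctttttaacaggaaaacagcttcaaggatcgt

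RefSeq windows were matched for 8 of the 9 genes, with 14 windows in all because Cmah, Foxp1 and Arhgef3 have several starts. Over the 250 bases before each start, CACCC was found on either strand in 9 of 14 windows, or 64.3%, against 52.0% of 32851 windows of that length in the table. It occurred 5 times before Klf3, 6 times before Cd80, 4 times before Nt5e, 3 times before Pdcd1lg2 and 1 time before Klf2. The GC box GGGCGG, whose letters can overlap a neighbouring GGGTG, was found in 6 of 14 windows, or 42.9%, against 32.7% of all windows. The Klf3 and Nt5e windows hold 6 and 4 copies of it and GC contents of 78.4% and 72.0%, while those of Pdcd1lg2 and Cd80 hold 0 copies and have GC contents of 48.4% and 52.8%. The forkhead letters TGTTTAC were in 0 of the 14 windows and in 3.17% of all windows. These matches describe letters in a window, and binding was not measured.

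**Figure D1:**
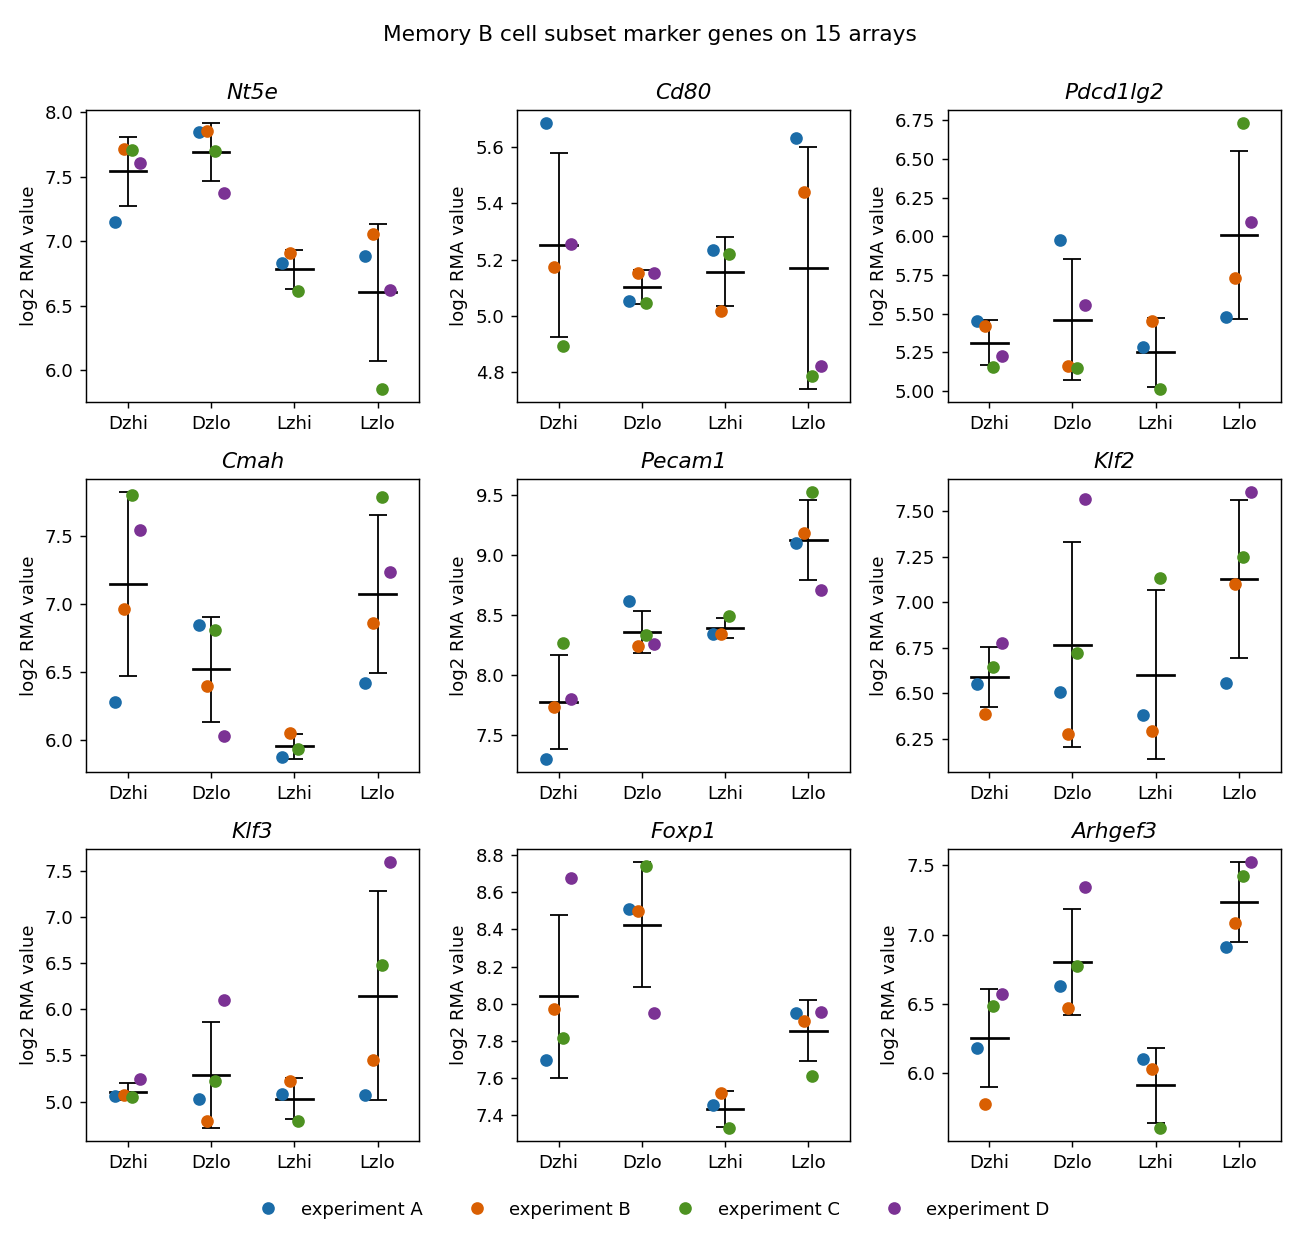
Log2 RMA value (vertical axis, scaled for each gene) of the 9 genes on each array of the groups Dzhi, Dzlo, Lzhi and Lzlo. Points are arrays coloured by experiment, and the bars are the group mean and SD. All light zone arrays lie below all dark zone arrays for Nt5e, and all Lzhi arrays lie below all Lzlo arrays for Arhgef3, Pecam1, Cmah, Pdcd1lg2 and Foxp1.

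The first comparison asked how the genes differed between light and dark zone cells. Nt5e was the 1 member that passed over all genes, and it was lower in light zone cells. Its values were 7.15, 7.71, 7.70 and 7.60 in Dzhi and 7.84, 7.85, 7.37 and 7.70 in Dzlo. They were 6.83, 6.90 and 6.61 in Lzhi and 6.89, 7.06, 6.62 and 5.85 in Lzlo. The highest light zone value, 7.06, lay under the lowest dark zone value, 7.15, and Lzlo replicate 4 was lowest of all. Averaged over both affinities, Nt5e fell by 0.92 ± 0.17 on the log2 scale in light zone cells (limma, adjusted p = 0.0453), a 1.90-fold difference. In that fit 31 of 19938 genes passed, or 0.155%, and 1 of the 9 members did. Groups that do not overlap, light below dark, were seen for 1 of 9 members and for 0.0953% of all genes.

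The difference of Nt5e was negative at both affinities, at -0.76 ± 0.24 between Lzhi and Dzhi and -1.09 ± 0.22 between Lzlo and Dzlo. At these 2 affinities 0 members passed, against 0.0150% and 0.0100% of all genes. The first difference minus the second was 0.33 ± 0.33, with a 95% interval from -0.38 to 1.04. Within experiments A, B and C, Lzhi minus Dzhi was -0.32, -0.81 and -1.09. Among low-affinity cells the difference was -0.96, -0.80, -1.85 and -0.75 in experiments A to D. Nt5e was thus lower in the light zone in 7 of 7 pairs, the pairs of experiment B resting on the merged code. Of all genes 10.1% were lower in every high-affinity pair and 8.81% in every low-affinity pair. The call was near the threshold. It held without Dzhi replicate 1, Dzlo replicate 3, Lzlo replicate 2 or Lzlo replicate 4, at adjusted p of 0.0448, 0.0467, 0.0358 and 0.0219, and was lost in each of the other 11 fits that left out 1 array, at adjusted p between 0.0651 and 0.121. It was also lost with each array centred on its median (adjusted p = 0.0668), with a trend in the variance (0.0596), when Dzlo replicate 3 and Lzlo replicate 3 were both left out (0.0599), without experiment D (0.104) and with the experiment code as written as a block (0.119). Markers of T follicular helper cells, which also express CD73, had a mean log2 level between 5.42 and 5.78 on all arrays. Their median difference between zones was 0.04 over 6 genes, among them Cxcr5 at 0.79 ± 0.25. The part of these cells in the Nt5e values was not tested.

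Nt5e acts between the ectoenzyme CD39, which supplies AMP, and adenosine deaminase, which removes adenosine. Of 14 genes of adenosine handling 10 were measured, and 1 passed between zones. That gene, Ada, encoding adenosine deaminase, fell by 0.78 ± 0.14 in light zone cells (limma, adjusted p = 0.0451). Its call held in 2 of 15 fits that left out 1 array, those without Dzlo replicate 2 and Lzlo replicate 3, and the adjusted p over these 15 fits ran from 0.0151 to 0.134. Entpd1, encoding CD39, had a difference of -1.01 ± 0.26 between zones (adjusted p = 0.255), and of 1.34 ± 0.35 between Dzhi and Dzlo (adjusted p = 1). Dpp4, encoding CD26, which anchors adenosine deaminase on human cells, had one of 0.59 ± 0.27 (adjusted p = 1). Of the 10 genes 6 lay below 0 between zones, with a median of -0.06.

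Pecam1 and Foxp1 had the next smallest p-values among the members between zones, in opposite directions, and neither passed over all genes. Pecam1 read 7.30, 7.73, 8.26 and 7.80 in Dzhi, 8.61, 8.24, 8.25 and 8.33 in Dzlo, 8.34, 8.34 and 8.49 in Lzhi, and 9.10, 9.18, 8.71 and 9.52 in Lzlo. Lzlo arrays were all above the arrays of the other groups, and Dzhi held the lowest values. The zone difference was 0.69 ± 0.14 (limma, adjusted p = 0.107). It was 0.62 ± 0.21 among high-affinity cells and 0.77 ± 0.19 among low-affinity cells, and light zone values were higher in 7 of 7 pairs. Of all genes 10.7% were higher in every high-affinity pair and 8.53% in every low-affinity pair. Pecam1 passed with array weights, without Dzhi replicate 3 and without Lzlo replicate 3, at differences of 0.72, 0.77 and 0.76, so its call depended on these settings.

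Foxp1 was highest in the dark zone. Its values were 7.70, 7.97, 7.82 and 8.68 in Dzhi, 8.51, 8.50, 7.95 and 8.74 in Dzlo, 7.46, 7.52 and 7.33 in Lzhi, and 7.95, 7.91, 7.96 and 7.61 in Lzlo. Lzhi lay below every other array, whereas Lzlo overlapped both dark zone groups. The zone difference was -0.59 ± 0.15 (limma, adjusted p = 0.247), with -0.60 ± 0.22 and -0.57 ± 0.20 among high- and low-affinity cells. It passed without experiment D, at -0.58 and an adjusted p of 0.0394. Of 7 other FOXP and FOXO factors 0 passed in limma between zones, with Foxo3 at 0.45 ± 0.15 and Foxo1 at -0.17 ± 0.12, the latter a factor of the dark zone programme.

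The other 6 members did not separate the zones over both affinities. Cmah had a difference of -0.32 ± 0.24, Klf3 of 0.40 ± 0.32, Pdcd1lg2 of 0.24 ± 0.18 and Klf2 of 0.19 ± 0.21. Arhgef3, at 0.05 ± 0.16, and Cd80, at -0.01 ± 0.14, had 95% intervals from -0.30 to 0.40 and from -0.32 to 0.30. Of the 9 members 4 lay below 0 with a median of 0.05, and of all genes 52.0% lay below 0. For Cmah, Arhgef3, Klf3, Pdcd1lg2 and Cd80 the zone difference had opposite signs at high and at low affinity. Cmah read -1.19 ± 0.35 at high and 0.55 ± 0.33 at low affinity, and Arhgef3 read -0.34 ± 0.24 and 0.43 ± 0.22. The corresponding values of Klf3 were -0.07 ± 0.47 and 0.86 ± 0.43, those of Pdcd1lg2 -0.06 ± 0.26 and 0.55 ± 0.24, and those of Cd80 -0.09 ± 0.21 and 0.07 ± 0.20. Without Lzlo replicate 3 the Klf3 difference was 0.38 ± 0.32 at low affinity and 0.15 ± 0.23 over both, that of Klf2 over both was 0.11 ± 0.20, and that of Cd80 at low affinity was 0.18 ± 0.20. Over both affinities Arhgef3 then read -0.003 ± 0.17 and Cd80 0.04 ± 0.14. Without Dzlo replicate 3 the values over both affinities were 0.32 ± 0.17 for Klf2, 0.14 ± 0.15 for Arhgef3 and -0.005 ± 0.15 for Cd80. Without both arrays they were 0.09 ± 0.15 for Arhgef3 and 0.05 ± 0.15 for Cd80, and at low affinity Cmah read 0.33 ± 0.38 and Cd80 0.20 ± 0.22. Between zones 13 of 13 neutrophil markers lay below 0 at high affinity, with a median of -0.21, and 12 of 13 above 0 at low affinity, with a median of 0.64. For T cell markers 8 of 11 lay below 0 at high affinity (median -0.07) and 9 of 11 above 0 at low affinity (median 0.29). Their part in these differences was not tested.

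**Figure D2:**
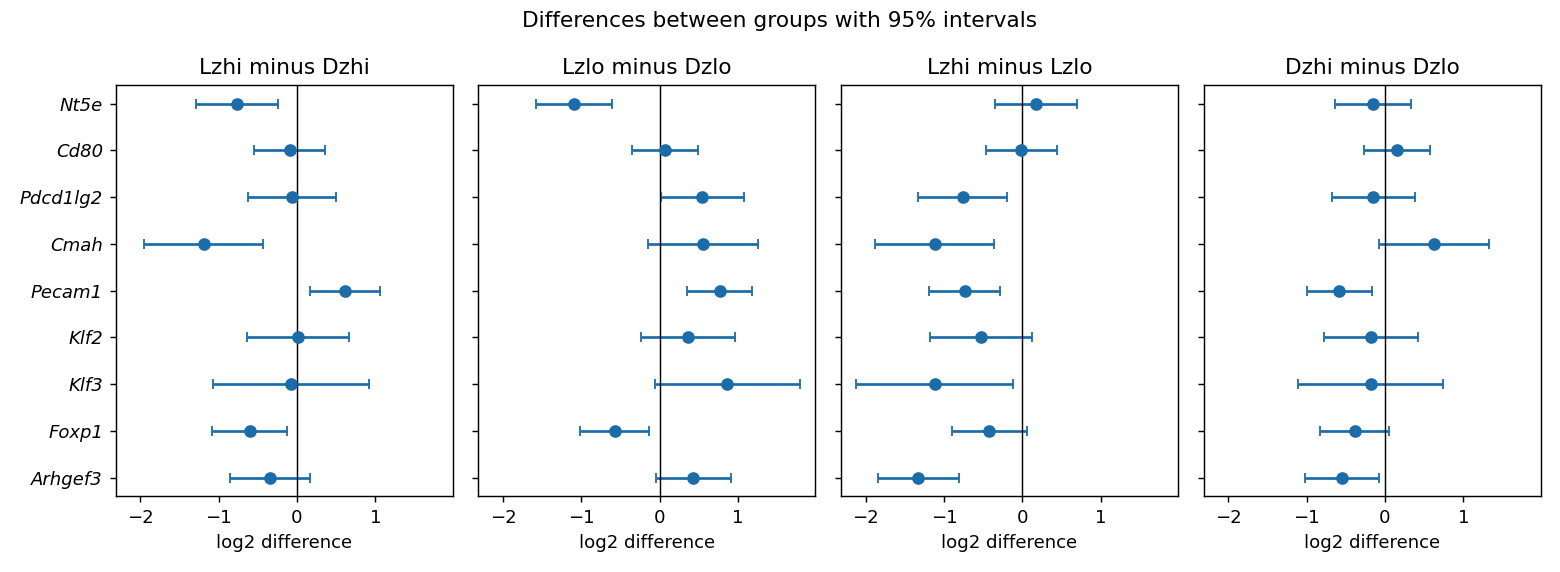
Log2 differences (horizontal axis) of the 9 genes between 2 groups in each panel, from the limma fit over all genes, with bars for the 95% interval. Nt5e lies below 0 and Pecam1 above 0 in both zone panels, and Arhgef3 and Pecam1 lie below 0 in both affinity panels.

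Affinity was then compared within the light zone, as Lzhi minus Lzlo. Of the 9 members 8 lay below 0, with a median of -0.73, whereas 50.1% of all genes lay below 0. Limma called 0 genes, or 0%, so no member is called lower. At an unadjusted p under 0.05 there were 797 genes, or 4.00%, and 5 members, Arhgef3, Pecam1, Cmah, Pdcd1lg2 and Klf3. Lzhi lay wholly below Lzlo for 5 members, against 2.29% of all genes. Since the set was proposed with results of these arrays in view, nothing is read from these counts.

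Arhgef3, the exchange factor gene, had the smallest p-value of all 19938 genes in this contrast. It read 6.10, 6.03 and 5.60 in Lzhi and 6.91, 7.09, 7.52 and 7.43 in Lzlo. In the dark zone it read 6.18, 5.78, 6.48 and 6.57 in Dzhi and 6.63, 6.47, 7.35 and 6.77 in Dzlo. Lzhi held all but 1 of the 4 lowest values, and Lzlo and Dzlo replicate 3 the highest. The light zone difference was -1.32 ± 0.24, a 2.50-fold difference (limma, adjusted p = 0.751, unadjusted p = 7.69e-05). Within experiments A, B and C it was -0.81, -1.06 and -1.82. Without Lzlo replicate 3 it was -1.23 ± 0.25. In the dark zone the difference was -0.55 ± 0.22, from -0.78 to -0.29 over the experiments. It was negative in 4 of 4 experiments, as for 3.25% of all genes. Over both zones it was -0.94 ± 0.16, and the interaction, which asks whether the affinity difference depended on zone, was -0.77 ± 0.33 (limma, unadjusted p = 0.0326, adjusted p = 1).

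Pecam1, with the array values given above, had a light zone difference of -0.73 ± 0.21 and a dark zone difference of -0.58 ± 0.19 (limma, adjusted p = 1 for both). It was negative in 3 of 3 light zone pairs, at -0.76, -0.84 and -1.03. In the dark zone it was negative in 4 of 4 pairs, at -1.31, -0.51, -0.07 and -0.45. Of all 19938 genes 2393 were lower and 3121 higher in every light zone pair. In every dark zone pair 648 were lower and 786 higher. Over both zones the difference was -0.66 ± 0.14 (adjusted p = 0.666), and the interaction was -0.15 ± 0.29, with a 95% interval from -0.76 to 0.46, or -0.29 ± 0.27 without Lzlo replicate 3 and -0.26 ± 0.28 without both arrays high in neutrophil markers. Pecam1 is also a marker of endothelial cells and platelets. The mean log2 level of 11 endothelial markers lay between 4.99 and 5.43 on all arrays, and that of 6 platelet and megakaryocyte markers between 5.15 and 5.71. Their ranges overlapped between all groups, and in this contrast the endothelial markers had a median difference of -0.015 with 6 of 11 below 0, and the platelet and megakaryocyte markers one of -0.10 with 5 of 6 below 0. The mean log2 level of 8 naive and marginal zone B cell markers was 7.26 to 7.42 in Dzhi, 7.42 to 7.64 in Dzlo, 7.46 to 7.58 in Lzhi and 7.68 to 7.99 in Lzlo. As for Pecam1, Lzlo arrays were highest and Dzhi held the lowest values. Of these 8 markers 6 lay below 0 in this contrast, 4 did in the dark zone affinity contrast, and 4 lay above 0 between zones. The part of platelets, naive or marginal zone B cells and other cells in the Pecam1 values was not tested. Of 7 PECAM1 partners 5 were measured and all 5 lay below 0 in the light zone, against 50.1% of all genes, none passing in limma. Plcg1 read -0.39 ± 0.23, Ptpn11, which encodes the phosphatase SHP2 that binds the PECAM1 tail, -0.34 ± 0.22, and Ptpn6, which encodes SHP1, -0.23 ± 0.15.

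Cmah was lowest in high-affinity light zone cells, where its values were 5.88, 6.05 and 5.93. They were 6.42, 6.86, 7.24 and 7.78 in Lzlo, 6.28, 6.96, 7.79 and 7.54 in Dzhi, and 6.85, 6.40, 6.03 and 6.81 in Dzlo. The Lzhi arrays spanned under 0.2 and lay below all Lzlo and Dzhi arrays, while each of the other groups spread widely. The light zone difference was -1.12 ± 0.35 and the dark zone difference was 0.62 ± 0.33 (limma, adjusted p = 1 for both). The interaction was -1.74 ± 0.48, with an unadjusted p of 0.00287, the fourth smallest of all genes, and an adjusted p of 1. In the light zone Cmah was lower in 3 of 3 experiments, at -0.54, -0.80 and -1.85, as were 2393 of all 19938 genes. In the dark zone it was higher in 3 of 4, at -0.56, 0.57, 0.98 and 1.51. All 15 genes listed for sialic acid synthesis, transfer and recognition were measured, and 0 passed in any comparison in limma. In the light zone affinity contrast 9 of them lay below 0 with a median of -0.09, among them the sialyltransferase gene St3gal1 at -0.79 ± 0.23 and Cd22, encoding a B cell lectin for sialic acids, at -0.36 ± 0.18. Slc35a1, the transporter gene for activated sialic acid, read 0.72 ± 0.25 between zones and 0.14 ± 0.37 here.

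**Figure D3:**
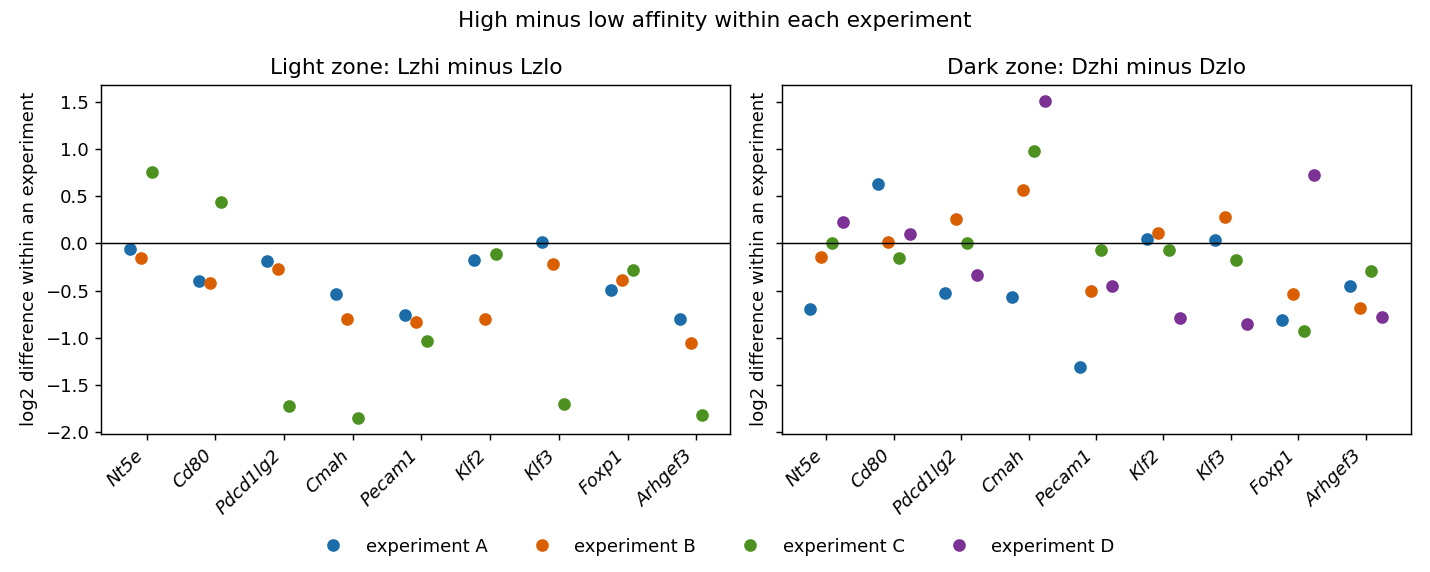
Log2 difference of high minus low affinity (vertical axis) for each gene within each experiment, in the light zone (left, experiments A to C) and the dark zone (right, experiments A to D). Arhgef3 and Pecam1 lie below 0 in every experiment of both zones, while Cmah lies below 0 in all 3 light zone experiments and above 0 in 3 of 4 dark zone experiments. Of all 19938 genes 2393 lie below 0 in every light zone experiment and 648 in every dark zone experiment. Above 0 in every experiment lie 3121 in the light zone and 786 in the dark zone.

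The B7 ligand genes of memory subsets, Pdcd1lg2 and Cd80, were not tested against each other. Pdcd1lg2 read 5.29, 5.45 and 5.01 in Lzhi and 5.48, 5.73, 6.09 and 6.73 in Lzlo, so the groups did not overlap but were separated by little, 5.45 against 5.48. In the dark zone it read 5.45, 5.42, 5.16 and 5.23 in Dzhi and 5.98, 5.16, 5.56 and 5.15 in Dzlo, which overlapped. All Lzhi and Dzhi values of Pdcd1lg2 lay under the lowest array median, 5.57. Whether it was expressed in those groups cannot be told, since no detection calls were given. The light zone difference was -0.76 ± 0.26, or -0.52 ± 0.22 without Lzlo replicate 4, which held the highest value. Within experiments A, B and C it was -0.19, -0.28 and -1.72. The dark zone difference was -0.15 ± 0.24.

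Cd80 lay between 4.79 and 5.69 on all 15 arrays, and the ranges of all 4 groups overlapped. Its affinity difference was -0.01 ± 0.21 in the light zone and 0.15 ± 0.20 in the dark zone, and its sign varied between experiments. It is also read by another probe set, which lay between 4.04 and 5.63 and whose mean over all arrays was 4.87 against 5.17. Both means are below the array medians, and the table holds no detection calls, so whether Cd80 was expressed cannot be told. Of 11 other B7 family members and receptors, 1 passed between zones, the sort marker Cd86, which is no finding there. For affinity in the light zone 0 passed in limma, with Icosl, the ligand gene for ICOS, at -0.89 ± 0.27, and 8 of 11 lay below 0 with a median of -0.10.

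The KLF genes were highest in low-affinity light zone cells, but on few arrays. Klf3 read 5.08, 5.23 and 4.78 in Lzhi and 5.07, 5.45, 7.60 and 6.48 in Lzlo, and 5.03, 4.79, 6.10 and 5.22 in Dzlo. The Dzhi values, 5.06, 5.07, 5.04 and 5.25, were close together. Lzlo replicates 3 and 4 and Dzlo replicate 3 lay above 6, and all other arrays lay under 5.5, below the lowest array median of 5.57. The light zone difference was -1.12 ± 0.47, and -0.64 ± 0.35 without Lzlo replicate 3, a change of over 1.5 times. Within experiments A, B and C it was 0.02, -0.22 and -1.70. On Lzlo replicates 3 and 4 and Dzlo replicate 3, in that order, neutrophil markers read 9.03, 6.31 and 7.68 and T cell markers 6.90, 5.92 and 5.73. Neutrophil markers also read 6.34 to 6.55 on Lzhi replicate 2 and Dzhi replicates 2 and 4, where Klf3 was low, and T cell markers read at most 5.58 on the arrays with low Klf3. The part of these cells in the Klf3 values was not tested.

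Klf2 overlapped between all groups, with 6.38, 6.29 and 7.13 in Lzhi, 6.56, 7.10, 7.60 and 7.25 in Lzlo, 6.55, 6.39, 6.65 and 6.78 in Dzhi and 6.51, 6.28, 7.57 and 6.72 in Dzlo. Lzlo replicate 3 and Dzlo replicate 3 held its highest values, as for Klf3 in their groups. The light zone difference was -0.52 ± 0.30, and -0.37 ± 0.31 without Lzlo replicate 3. Experiments A, B and C gave -0.18, -0.81 and -0.12. Of 7 genes of trafficking that KLF2 is known to control, 6 were measured. All 6 lay below 0 for affinity in the light zone with a median of -0.44, against 50.1% of all genes, and 0 passed in limma. They included S1pr1, the receptor gene for exit into blood, at -0.57 ± 0.32 and the integrin gene Itgb7 at -0.57 ± 0.24. T cell and naive and marginal zone B cell markers also leaned below 0 in this contrast, with medians of -0.65 and -0.34. S1pr1 and Ccr7 are on the naive and marginal zone B cell list too. The part of such cells in the KLF2 target values was not tested. Of 15 other KLF genes, Klf12 rose between zones by 0.74 ± 0.13 (limma, adjusted p = 0.0363). It held in 4 of 15 fits that left out 1 array, those without Dzhi replicate 4, Dzlo replicate 3, Lzhi replicate 4 or Lzlo replicate 4, and its adjusted p ranged from 0.0178 to 0.111 over the 15. For affinity in the light zone 0 of the 15 passed, with a median of -0.03 and Klf10 at 0.38 ± 0.16.

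**Figure D4:**
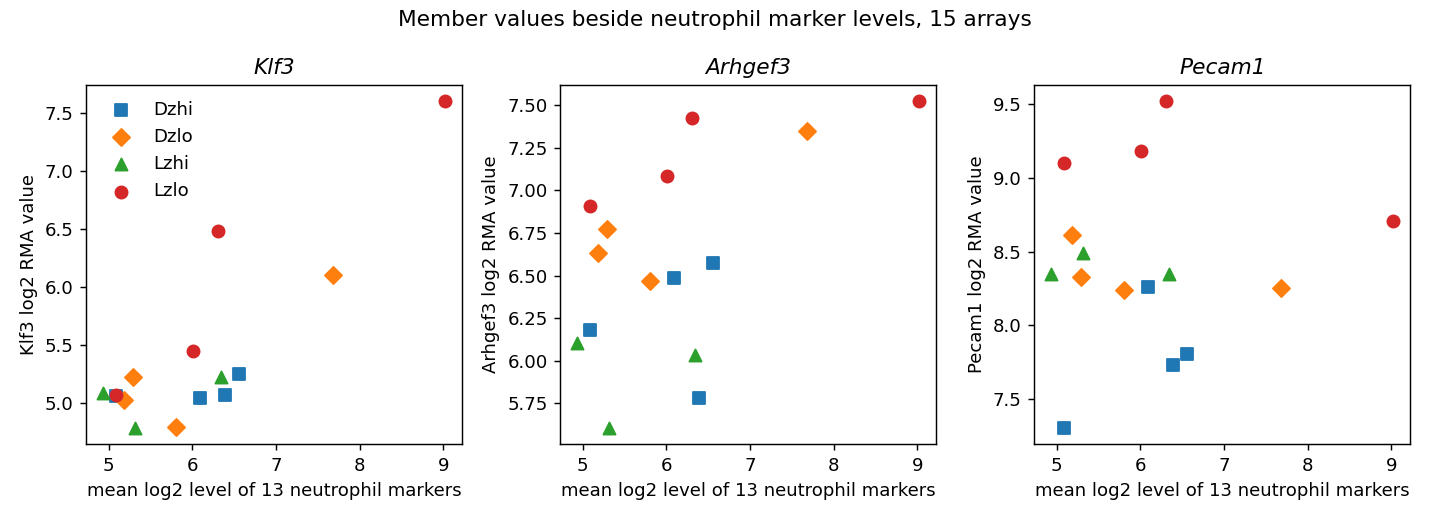
Log2 RMA values of Klf3, Arhgef3 and Pecam1 (vertical axes) against the mean log2 level of 13 neutrophil markers (horizontal axis) on 15 arrays, with symbols for the groups. The array with the highest marker level, 9.03, has the highest Klf3 and Arhgef3 values and the lowest Pecam1 value of the Lzlo group.

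In this contrast 12 of 13 neutrophil markers lay below 0 with a median of -1.18, and 11 of 11 T cell markers with a median of -0.65. So did 7 of 7 NK cell markers, with a median of -0.30, and 9 of 11 macrophage and monocyte markers, with a median of -0.13. Naive and marginal zone B cell markers lay below 0 for 6 of 8, with a median of -0.34, and their mean log2 level was 7.46 to 7.58 in Lzhi against 7.68 to 7.99 in Lzlo. Fewer cells of a type and less RNA per cell cannot be told apart in these bulk samples. Without Lzlo replicate 3 the members read -1.23 for Arhgef3, -1.06 for Cmah, -0.87 for Pecam1, -0.73 for Pdcd1lg2, -0.39 for Foxp1, -0.13 for Cd80 and 0.18 for Nt5e. In experiment A neutrophil marker levels were 4.94 in Lzhi and 5.09 in Lzlo, and T cell marker levels were 5.05 and 5.11. Naive and marginal zone B cell markers read 7.46 and 7.68 there, and plasma cell markers 6.77 and 6.48. The median difference over the 9 members was -0.40 in experiment A, -0.42 in experiment B and -1.03 in experiment C. The part of neutrophils, T cells, NK cells, macrophages and monocytes, naive or marginal zone B cells and plasma cells in these values was not tested.

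Foxp1 and Nt5e completed the light zone comparison. Foxp1 differed by -0.42 ± 0.22, with -0.49, -0.39 and -0.28 in experiments A, B and C. Lzhi and Lzlo did not overlap, at 7.52 or less against 7.61 or more. In the dark zone it was -0.39 ± 0.20, negative in 3 of 4 experiments and 0.73 in experiment D. Nt5e was the 1 member above 0 in the light zone, at 0.18 ± 0.24, and it was -0.07 ± 0.18 without Lzlo replicate 4. Its dark zone difference was -0.15 ± 0.22, or -0.26 ± 0.24 without Dzlo replicate 3. With 95% intervals from -0.34 to 0.70 and from -0.63 to 0.33, a difference in Nt5e by affinity was not detectable with these arrays.

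Between Dzhi and Dzlo, 7 of the 9 members lay below 0 with a median of -0.18, and 49.6% of all genes did. Limma called 0 genes, or 0%, with 320, or 1.60%, at an unadjusted p under 0.05, among them Pecam1 and Arhgef3. Dzhi and Dzlo overlapped for all 9 members, and 1.11% of all genes did not overlap. Without Dzlo replicate 2 the dark zone median was -0.34. Klf2 and Klf3 read -0.18 ± 0.28 and -0.18 ± 0.43, with their most negative value in experiment D, at -0.79 and -0.86. Both turned positive without Dzlo replicate 3, at 0.09 ± 0.24 and 0.09 ± 0.44. Plasma cell markers lay above 0 for 6 of 6 in the dark zone (median 0.36), in the light zone (0.16) and over both zones (0.27), and their part in the affinity differences was not tested. Of the neutrophil and T cell markers, 7 of 13 and 8 of 11 lay below 0 in that zone, with medians of -0.04 and -0.06. Over both zones 7 of 9 members lay below 0 with a median of -0.40, against 49.7% of all genes, and limma called 0 genes, or 0%, with 857, or 4.30%, unadjusted. For the interaction 8 of 9 lay below 0 with a median of -0.35, against 50.3% of all genes, and limma called 0 genes, or 0%, with 266, or 1.33%, unadjusted, Cmah and Arhgef3 among them. That median was -0.18 without Dzlo replicate 2, -0.19 without Lzhi replicate 2, -0.54 without Lzlo replicate 1 and -0.61 without Dzlo replicate 3. In the interaction 13 of 13 neutrophil markers (median -1.004) and 11 of 11 T cell markers (median -0.43) also lay below 0. Over both zones 12 of 13 (median -0.55) and 10 of 11 (median -0.35) did, and their part in the members' values was not tested.

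Other genes of memory B cells gave values to set beside the members. Of 25 listed, 23 were measured, some of which (S1pr1, Itgb7 and Cxcr3) are also on the list of KLF2 targets. Between zones 2 rose, Hhex, a transcription factor of memory fate, by 1.92 ± 0.25 (limma, adjusted p = 0.00476) and Fcer2a, encoding CD23, by 1.69 ± 0.13 (adjusted p = 9.56e-05), and 17 of 23 lay above 0. Among high-affinity cells 12 of 23 lay above 0 with a median of 0.03, and among low-affinity cells 19 did with a median of 0.45. Of all genes 51.2% and 51.4% lay below 0 in these comparisons, and 52.0% between zones over both affinities. Neutrophil and T cell markers also leaned above 0 at low affinity, and their part in the values of the 23 was not tested. For affinity in the light zone 20 of 23 lay below 0 with a median of -0.50, and 0 passed in limma. Of all genes 50.1% lay below 0 there. Examples from the 23 were Bach2, a repressor that favours memory over plasma cell fate, at -0.89 ± 0.29, Tle3, a corepressor that partners HHEX, at -0.81 ± 0.28, and Hhex at -0.80 ± 0.37. Neutrophil, T cell and naive and marginal zone B cell markers also leaned below 0 in this contrast, with medians of -1.18, -0.65 and -0.34. Fcer2a, Cr2, Ccr7 and S1pr1 are on the last of these marker lists as well. The part of such cells in the values of the 23 was not tested. In the dark zone 14 of 23 lay below 0 with a median of -0.08, against 49.6% of all genes.

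The order of the group means differed between the members. Lzlo was highest for Arhgef3, Pecam1, Pdcd1lg2, Klf2 and Klf3, Dzlo for Nt5e and Foxp1, and Dzhi for Cmah and Cd80. Lzhi was lowest for Arhgef3, Cmah, Foxp1, Pdcd1lg2 and Klf3. Of the 27 steps between neighbours in these orders, 3 had ranges that did not overlap. They were Dzhi over Lzhi for Nt5e, Lzlo over Lzhi for Pecam1 and Lzlo over Lzhi for Foxp1. Of all genes 1.85% had Lzhi wholly below Dzhi and 2.29% had Lzhi wholly below Lzlo. The share of such steps over all genes was not counted, so nothing is read from the 3. Group means and SDs of Arhgef3 were 7.24 ± 0.29 in Lzlo, 6.80 ± 0.38 in Dzlo, 6.25 ± 0.36 in Dzhi and 5.91 ± 0.27 in Lzhi (SD, n = 4, 4, 4 and 3). Those of Nt5e were 7.69 ± 0.22 in Dzlo, 7.54 ± 0.27 in Dzhi, 6.78 ± 0.15 in Lzhi and 6.60 ± 0.53 in Lzlo.

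For each member the genes with the most similar pattern over the 15 arrays were found by Pearson's r, given as a description because arrays share experiments, groups and cell makeup. Pecam1 was most like Pdcd4 (0.92), Fcer2a (0.89) and Cd72 (0.89), the last being a coreceptor gene of B cells. Arhgef3 was most like Notch2 (0.90), a receptor gene of marginal zone B cells, Chst15 (0.89) and Rasal3 (0.89). Klf3 was most like the T cell gene Cd3d (0.95), Pilra (0.95) and Pdlim1 (0.94), while Klf2 was most like Fam98c (0.94), Lrrk1 (0.91) and Slc4a2 (0.90). Foxp1 came with Lgr5 (0.87), Acbd3 (0.80) and Mctp2 (0.80), and Nt5e with Vmn1r181 (0.88), Selenop (0.87) and Rrm2b (0.84). Pdcd1lg2 came with Bmf (0.87), a BH3-only gene of apoptosis, Klrb1f (0.87) and Parm1 (0.84). Cmah had its closest values in Chpt1 (0.80), Cox6b2 (0.78) and Olfr432 (0.78), and Cd80 in Doc2g (0.83), Scg3 (0.83) and Masp2 (0.82). After group means were taken away, r was 0.93 for Klf3 with Cd3d, 0.66 for Pecam1 with Pdcd4 and 0.67 for Arhgef3 with Notch2.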

How the data were processed

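RNA of 15 sorted samples was amplified, labelled and hybridised, 1 array per sample, per the labels' protocols. The authors deposited log2 RMA values for 28853 probe sets. RMA and build mm8 come from the submitters' processing notes, while the software behind RMA is not given in the sources used here. The method corrects background, normalizes by quantiles and compresses differences of dim probe sets. Of the probe sets 21789 had 1 symbol, 1621 several and 5443 none, and only the first were used. Of these 21698 matched a RefSeq gene by Entrez ID. Where several probe sets carried the same symbol, as for 999 genes, the brightest on average stood for the gene, giving 19938 genes. The highest correlation between 2 arrays was 0.992, and each was kept as its own sample.

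Limma 3.58.1 in R 4.3.3 (lmFit, eBayes) modelled the 15 arrays by 4 group means, leaving 11 residual degrees of freedom. Benjamini-Hochberg adjustment ran over all genes within each comparison, at a threshold of 0.05, and errors of differences are standard errors of that fit. The fit was tested on simulated data. The members and lists were chosen with earlier results of these data known. Named genes were the 9 members, the 3 genes most like each, list genes that passed, and up to 2 per list with the largest difference between zones and in the light zone affinity contrast. Alternatives changed centring, dim genes, probe sets, variance model, array weights, samples, block and threshold. The result of 1 gene list is not reported here. Figures were drawn with matplotlib 3.10.9.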

Additional observations from a re-analysis of the deposited data

Results flagged for a closer look

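In 27 groups of 4 arrays, 9 genes in each of 3 groups, 2 held an array whose gap to the nearest other array was large against the group's range, where chance gives about 1 in 20. Klf3 in Dzhi replicate 4 read 5.25, against 5.04 to 5.07 on the other 3 Dzhi arrays, a small difference in a narrow group. Foxp1 in Lzlo replicate 4 read 7.61, against 7.91 to 7.96 on the other 3 Lzlo arrays. That array also held the lowest Nt5e value and the highest Pecam1, Cmah and Pdcd1lg2 values of its group.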

How the results depend on the processing

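The number of members called between zones, 1, was 0 with each array centred, with a variance trend, with a replicate block by experiment code as written and without Dzlo replicate 3 and Lzlo replicate 3 together, 2 with array weights, and 0 to 1 when 1 array was left out. Genes called there numbered 31, against 90 with the merged experiment code as a block, 83 with the title number as a block, 68 with array weights and 18 to 37 with 1 array left out. Among high-affinity cells 3 genes passed between zones, and 1 to 11 did under the alternatives, the most with the merged block. Among low-affinity cells 2 did, and 0 to 30 under the alternatives, again the most with that block. Without the dim genes, among them Cd80, Pdcd1lg2 and Klf3, 6 members remained, with medians of -0.14 between zones and -0.47 among high-affinity cells. The light zone affinity median was -0.58 with array weights and -0.78 to -0.52 with 1 array left out. Those ranges were -0.03 to 0.14 between zones over both affinities, 0.32 to 0.58 between zones among low-affinity cells, -0.34 to -0.11 for affinity in the dark zone and -0.61 to -0.18 for the interaction. For affinity over both zones, genes called rose from 0 to 1 with array weights, with the title number as a block and without Dzlo replicate 3 and Lzlo replicate 3 together. Deviations from group means correlated at 0.288 on average in 21 pairs of arrays sharing a code, 16 of them above 0.1, at -0.082 in 63 pairs of different codes, 21 of them above 0.1, and at 0.227 in 21 pairs sharing a title number, 15 of them above 0.1. Arrays sharing a code were thus more alike on average than arrays of different codes. Since not every pair sharing a code or number was above 0.1, the main fit held no block. Its errors and p-values leave this likeness out. With the merged block Nt5e kept its call (adjusted p = 0.0274), and 0 other members gained one. Signs of small differences were not fixed: Cd80 kept its sign in 20 of 25 alternatives for affinity in the light zone, and Nt5e in 16 of 25 over both zones. The cause of these changes was not tested. The number of arrays, dim probe sets such as those of Cd80, Pdcd1lg2 and Klf3, and markers of other cells on experiment D arrays limit these values.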
